A study of Mus musculus with 12 samples.

Results

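The Wnt family in the kidney of *Pkd1* mutant mice is described here through 48 protein-coding genes out of 35275 genes counted. The genes were chosen by name: all *Wnt*, *Fzd*, *Sfrp* and *Dkk* genes with a family number in the table, together with *Lrp5*, *Lrp6*, *Ror1*, *Ror2*, *Rspo1*, *Rspo3*, *Wif1*, *Ctnnb1*, *Axin2*, *Lef1* and *Tcf7*. By role they were 19 Wnt ligands, 10 Frizzled receptors, 4 co-receptors or alternative receptors, 2 R-spondins, 9 secreted inhibitors, and 4 genes that carry or report the signal inside the cell.

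Kidney RNA was sequenced from 12 C57BL/6J mice at 6 months of age, 4 in each of 3 groups, each with 2 females and 2 males. WT mice carried no mutation. RC/RC mice (labelled *Pkd1*RC/RC) were homozygous for a hypomorphic *Pkd1* allele and are a model of slowly progressive polycystic kidney disease. RC/RC:*Casp1*KO mice carried the same *Pkd1* alleles and, in addition, a disrupted *Casp1*, the gene of the inflammatory protease Caspase-1, made by gene editing and studied as a single line. The *Pkd1* mutation and the loss of *Casp1* were present in every cell type and throughout life, and *Casp1* was not disrupted in mice without the *Pkd1* mutation. The main comparisons of the design were RC/RC against WT for the disease and RC/RC:*Casp1*KO against RC/RC for the loss of *Casp1*. They share the RC/RC mice, so their values are given side by side and are not independent of each other. RC/RC:*Casp1*KO was also compared with WT.

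Wnt proteins are secreted, lipid-modified signals that bind Frizzled receptors. With *Lrp5* or *Lrp6* as co-receptor they protect β-catenin (*Ctnnb1*) from degradation, and β-catenin then acts on target genes together with TCF/LEF factors such as *Tcf7* and *Lef1*. Through *Ror1* or *Ror2* other Wnt proteins act without β-catenin. Secreted Frizzled-related proteins and *Wif1* bind the ligands, most Dickkopf proteins block the co-receptors, and R-spondins keep the receptors at the cell surface. In the embryonic kidney *Wnt9b* and *Wnt4* drive the formation of nephrons, and *Wnt7b* is made by the collecting duct epithelium.

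Between 18019819 and 24869454 reads were counted on genes in each mouse. Expression of one gene across mice is given as CPM, read counts scaled to the size of each library with TMM factors, always in the order of mice A, B, C and D of a group, letters that only name the mice. Levels of different genes are compared only as FPKM, which divides by gene length. A log2 fold change is given with its standard error (SE), and an adjusted p is from edgeR's quasi-likelihood test over all genes with Benjamini-Hochberg adjustment. A gene was said to rise or fall when this value was under 0.05. A group in which no mouse had more than 3 counts was taken as being at the floor, about 0.144 CPM in WT. The p-values measure the spread among the mice of these groups, and in whole-kidney RNA fewer cells of a type and less RNA per cell cannot be told apart.

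The kidney markers were present in every mouse, with *Slc34a1* of the proximal tubule at 2034 to 6806 CPM and *Umod* of the thick limb at 2354 to 5133 CPM. *Casp1* was at 2.06, 1.29, 1.30 and 1.41 CPM for WT, 3.37, 3.84, 4.26 and 2.62 CPM for RC/RC, and 0.665, 0.385, 1.05 and 0.664 CPM for RC/RC:*Casp1*KO, so that all mice labelled as knockouts lay below all other mice. Levels of *Pkd1* ran from 40.4 to 67.1 CPM for WT mice and from 46.7 to 67.0 CPM for RC/RC mice, and since the hypomorphic allele still makes RNA this checks no label. A pair of mice stood apart by markers of tissue next to the kidney. RC/RC mouse B had a summed level of 4 adipocyte markers of 869 CPM against 40.1 to 123 CPM in the other 11 mice, with *Fabp4* as the most abundant. WT mouse C and RC/RC mouse B had the highest sums of 6 urothelium markers, 49.7 and 39.1 CPM against 3.00 to 23.9 CPM elsewhere, with *Upk1a* as the most abundant. None of these 10 genes was at 0 in all mice. Counts of Wnt genes are therefore also given without this pair, a choice made after the data had been seen.

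Inside the cell *Ctnnb1* was by far the most abundant of the 48 genes, at a mean of 137 FPKM over the 12 mice. Secreted inhibitor *Sfrp1* followed at 31.9 FPKM, then the receptors *Fzd1* at 26.0 FPKM and *Fzd4* at 23.2 FPKM, the co-receptor *Lrp6* at 21.3 FPKM and the inhibitor *Dkk3* at 12.6 FPKM. No ligand came near these levels. The highest ligand was *Wnt7b* at 5.07 FPKM, 5 of the 19 ligands reached 1 FPKM, and 10 stayed under 0.5 FPKM. Both R-spondins were low, with *Rspo3* at 0.333 FPKM. Of all 48 genes 23 reached 1 FPKM, 5 never exceeded 3 counts in any mouse (*Wnt1*, *Wnt3*, *Wnt3a*, *Wnt8a* and *Dkk4*), and of these *Wnt8a* had no count at all.

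**Figure D1:**
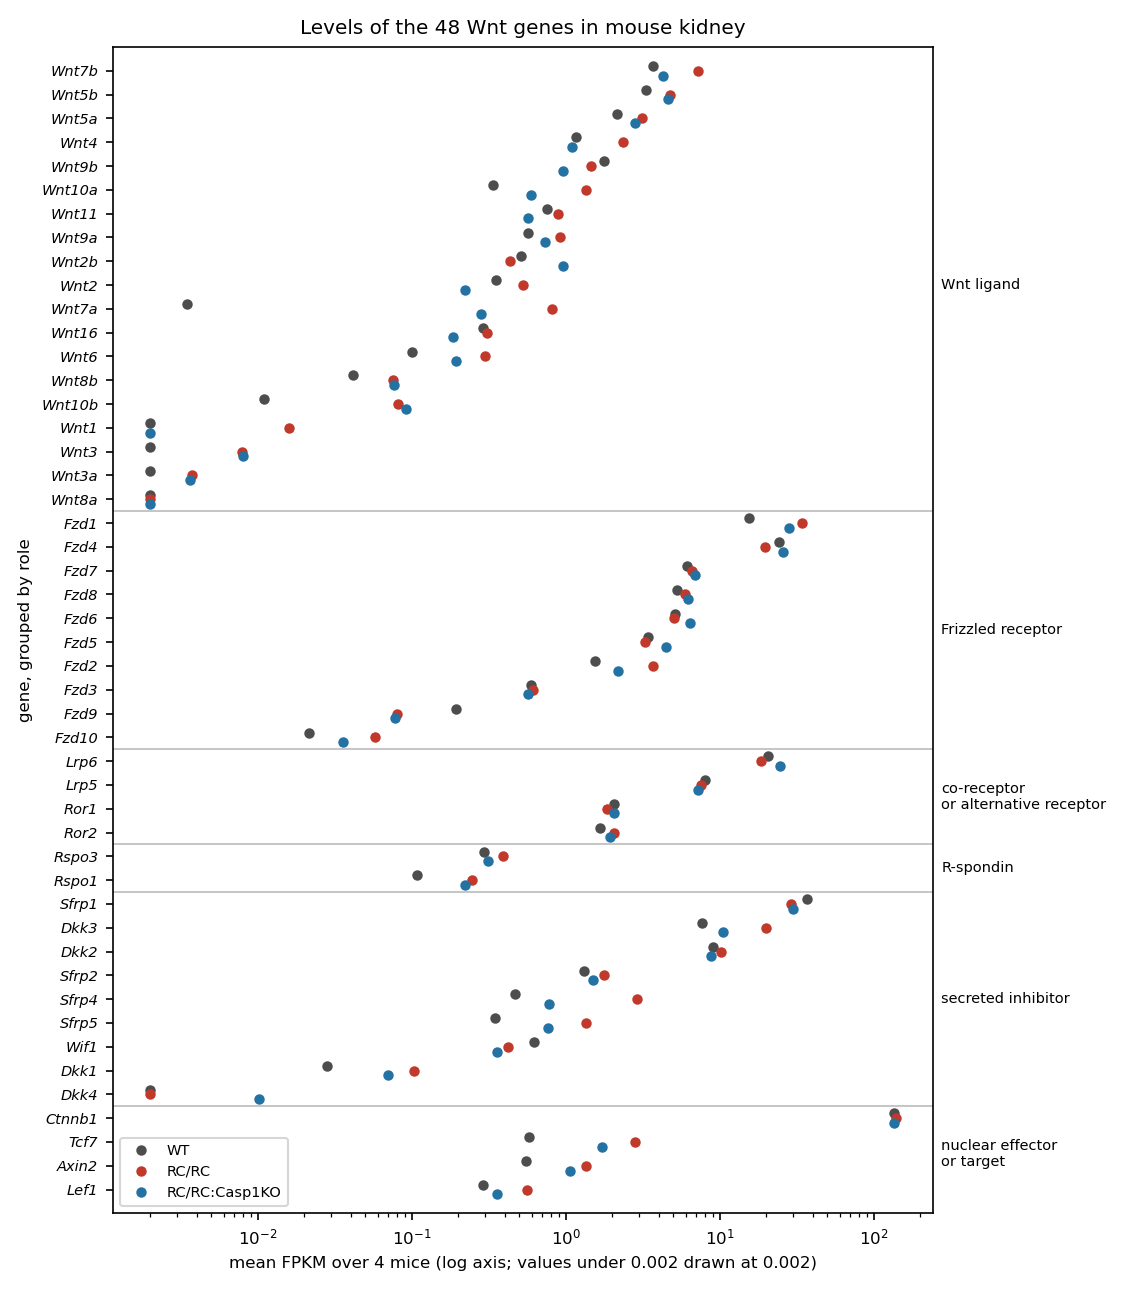
Mean FPKM over 4 mice for each of the 48 genes (rows, grouped by role), with WT in grey, RC/RC in red and RC/RC:Casp1KO in blue on a log axis. Ctnnb1 lies far to the right of all ligands, and Wnt7a has an RC/RC mean of 0.817 FPKM while its WT point stands for 1 count in 1 mouse, so the gap drawn for it rests on the floor.

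In RC/RC kidneys 8 of the 48 genes rose against WT and none fell. They were the ligands *Wnt7a* and *Wnt10a*, the receptors *Fzd1* and *Fzd2*, the secreted inhibitors *Dkk3*, *Sfrp4* and *Sfrp5*, and the transcription factor *Tcf7*. The filter on weak genes left 36 of the 48 to test, and 12 were too weak to test in any comparison. *Wnt7a*, at the floor in WT, entered through the RC/RC mice. *Sfrp4*, *Sfrp5* and *Wnt10a*, with a WT mouse at 6, 8 and 10 counts, also did not meet the filter in WT alone. These genes are counted among the 8 and in the share below, and their adjusted p comes after that selection. Across all 15243 genes tested 12.9% were called, 9.76% as higher and 3.18% as lower in RC/RC, beside 22.2% of the 36 Wnt genes. An unadjusted p under 0.05 (edgeR) was seen for 11 of the 36 (30.6%), near the 29.2% of all genes. The median log2 fold change was 0.23 over the 36 Wnt genes, with *Wnt7a* at its lower bound or as fitted, and −0.02 over all genes. Without WT mouse C and RC/RC mouse B, 8 Wnt genes were again called, with *Wnt4* in the place of *Sfrp5*. With a filter of at least 10 counts in every mouse 5 were called, since that filter removed the weaker genes from the test.

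In RC/RC:*Casp1*KO against RC/RC, *Wnt2b* rose while *Fzd2* and *Dkk3* fell, and 33 of the 36 Wnt genes tested did not pass. These 3 genes are 8.33% of those tested, beside 11.6% called among all 15428 genes (7.23% as higher and 4.41% as lower in the knockout), so the share was not above the background. The median log2 fold change was −0.31 over the 36 Wnt genes and −0.03 over all genes. An unadjusted p under 0.05 (edgeR) was seen for 12 of the 36 (33.3%), near the 31.7% of all genes. Calls fell to 0 when RC/RC mouse C or RC/RC:*Casp1*KO mouse A, B or D was left out, to 1 without RC/RC mouse B, and rose to 6 without RC/RC mouse D. DESeq2 called 7 of the Wnt genes in this comparison and edgeR with library size as the only scaling called 1. Against WT, RC/RC:*Casp1*KO kidneys had 1 Wnt gene called, *Fzd1*, of 35 tested (2.86%), beside 2.03% of all 15346 genes, 1.13% as higher. That count was 0 when WT mouse A, C or D or RC/RC:*Casp1*KO mouse C or D was left out.

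**Figure D2:**
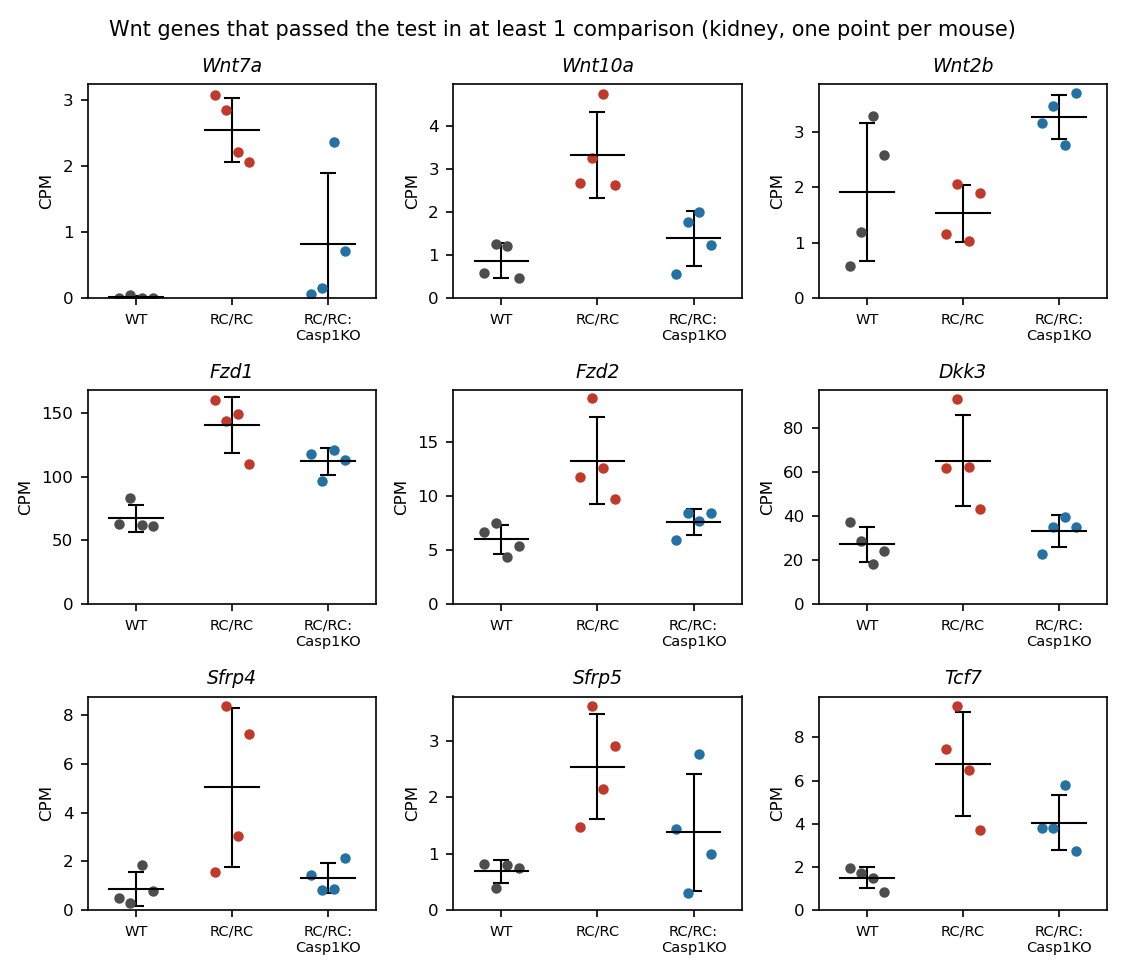
CPM in each mouse (points), with the group mean (line) and SD (bars, cut at 0), for the 9 Wnt genes that passed the test in at least 1 comparison. The RC/RC mice (red) lie above all WT mice (grey) for Wnt7a, Wnt10a, Fzd1, Fzd2, Dkk3, Sfrp5 and Tcf7, while Sfrp4 overlaps and Wnt2b differs mainly between RC/RC and RC/RC:Casp1KO (blue). The genes were drawn because they passed, and how often groups lie apart over all genes was not counted.

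Among the ligands, *Wnt7a* (ENSMUSG00000030093, chromosome 6, 91363981 to 91411363 on the minus strand in mm10) showed the clearest difference. *Wnt7a*, an epithelial ligand known from limb and reproductive tract patterning, had 0, 1, 0 and 0 counts for WT, 79, 54, 41 and 48 counts for RC/RC, and 1, 4, 52 and 15 counts for RC/RC:*Casp1*KO. In CPM the RC/RC mice were at 3.06, 2.84, 2.21 and 2.06. WT was at the floor, so the gene entered the test through the RC/RC mice and its rise is a lower bound, at least 17.6-fold. Its adjusted p (0.000194, edgeR) comes after that selection and is no further support. RC/RC:*Casp1*KO mice were at 0.0554, 0.154, 2.36 and 0.711 CPM. Mouse C lay within the RC/RC range and the other 3 knockouts below it, and the comparison with RC/RC gave a log2 fold change of −1.62 (SE 0.77, adjusted p = 0.183, edgeR). Without mouse C it was −3.02 (adjusted p = 0.0239), the only 1 of the 8 fits leaving out a mouse that passed. The adjusted p over these fits ran up to 0.315, and none of 5 other ways of processing passed.

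*Wnt10a* (ENSMUSG00000026167, chromosome 1, 74791516 to 74804179), a ligand known for its part in skin appendages and teeth, was at 0.574, 1.24, 1.20 and 0.469 CPM for WT, 2.68, 3.26, 4.75 and 2.62 CPM for RC/RC, and 0.554, 1.77, 2.00 and 1.23 CPM for RC/RC:*Casp1*KO. All RC/RC mice exceeded all mice of both other groups. Against WT the log2 fold change was 1.92 (SE 0.38, adjusted p = 0.0106, edgeR), and the call held when any single mouse was left out. *Wnt10a* narrowly missed the filter in WT alone, with 10 counts in WT mouse D, so this adjusted p comes after selection through RC/RC mice. RC/RC:*Casp1*KO differed from RC/RC by −1.24 on the log2 scale (SE 0.38, adjusted p = 0.0609, edgeR), which did not pass. Its neighbour *Wnt6* lies 6.2 kb away on chromosome 1 and was too weak to test, with mean levels of 0.0995, 0.297 and 0.192 FPKM for WT, RC/RC and the knockout, beside 0.335, 1.35 and 0.597 FPKM for *Wnt10a*. The other 3 adjacent pairs of Wnt genes, *Wnt3a* and *Wnt9a*, *Wnt9b* and *Wnt3*, and *Wnt10b* and *Wnt1*, each held at least 1 gene that was nearly silent, and no gene of these pairs passed a test.

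*Wnt2b* (ENSMUSG00000027840, chromosome 3, 104944805 to 104961709 on the minus strand), a ligand of the β-catenin branch, was the only Wnt gene that rose in the knockout against RC/RC. It was at 0.574, 1.20, 3.30 and 2.58 CPM for WT, 1.16, 2.05, 1.03 and 1.89 CPM for RC/RC, and 3.16, 3.46, 2.77 and 3.70 CPM for RC/RC:*Casp1*KO. The knockouts lay above all RC/RC mice, while the WT mice were spread over the range of both groups. The log2 fold change was 1.09 (SE 0.28, adjusted p = 0.0394, edgeR), and the call was lost when RC/RC mouse A or C or RC/RC:*Casp1*KO mouse A, B or D was left out, with adjusted p up to 0.108, and with a dispersion shared by all 12 mice (adjusted p = 0.105). For RC/RC against WT the log2 fold change was −0.33 (SE 0.51, adjusted p = 0.702, edgeR).

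The 3 ligands known from kidney development did not pass with all mice in the fit, and WT mouse C was the highest of its group for each of them. *Wnt4* was at 2.30, 2.44, 14.1 and 1.45 CPM for WT, 9.30, 12.6, 11.8 and 5.11 CPM for RC/RC, and 2.33, 5.73, 5.45 and 3.98 CPM for RC/RC:*Casp1*KO. All RC/RC mice were above 3 of the 4 WT mice, and WT mouse C, the mouse with the most urothelium RNA, was the highest of all. With all mice the RC/RC difference from WT was 0.92 on the log2 scale (SE 0.66, adjusted p = 0.38, edgeR) and it was 2.19 (adjusted p = 0.00712) without WT mouse C. Against RC/RC the knockout differed by −1.14 (SE 0.34, adjusted p = 0.0566, edgeR). Stretches of up to 171 bases of *Wnt4*, whose gene model has 4194 bases, recur at 95% identity or more in transcripts of 192 other genes, and stretches of up to 134 of the 3357 bases of *Dkk3* in those of 21. How reads from such stretches were counted is not stated, so this part of both counts is uncertain.

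*Wnt7b*, the most abundant ligand, was at 12.01, 11.8, 24.2 and 6.09 CPM for WT, 25.3, 27.3, 34.6 and 12.9 CPM for RC/RC, and 11.6, 17.6, 11.7 and 15.7 CPM for RC/RC:*Casp1*KO. WT mouse C was again the highest of its group. The log2 fold changes were 0.88 (SE 0.40, adjusted p = 0.182) against WT, and −0.82 (SE 0.27, adjusted p = 0.076) for the knockout against RC/RC, both by edgeR. Without WT mouse C the first was 1.30 and passed (adjusted p = 0.0446), and without both this mouse and RC/RC mouse B it was 1.26 (adjusted p = 0.0971). *Wnt9b* in WT mouse C was at 20.9 CPM against 1.499 to 6.32 CPM in the other WT mice, and neither comparison passed. The summed level of 6 collecting duct principal cell markers, led by *Aqp2*, was 426 to 882 CPM for WT, 1017 to 1435 CPM for RC/RC and 784 to 1032 CPM for RC/RC:*Casp1*KO mice. None of the 5 markers tested passed. In RC/RC against WT all 5 had a positive log2 fold change (median 0.74) and an unadjusted p under 0.05 (edgeR). The part of these cells in the ligand values was not tested.

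Of the remaining ligands tested, *Wnt5b* at 4.22 FPKM and *Wnt5a* at 2.70 FPKM, ligands that act mostly without β-catenin, gave log2 fold changes of 0.41 and 0.42 in RC/RC against WT and did not pass. *Wnt5b* shares 2963 bases with *Fbxl14* on the opposite strand, and because neither the library kit nor the counting is stated to use strand, its counts are uncertain. *Tcf7* overlaps 2 noncoding genes that had at most 6 counts in any mouse. The 10 ligands that were tested and not called in RC/RC against WT lay between −0.39 and 0.92 on the log2 scale, *Wnt2*, *Wnt9a*, *Wnt11* and *Wnt16* among them. Another 7 ligands were too weak to test.

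All 48 genes matched RefSeq genes (GRCm38.p6, the mm10 assembly), and windows around RefSeq start sites were at hand for 33 of them. The 250 bases before the start are shown for the ligand with the clearest rise, for the most abundant receptor, and for a ligand with a TCF/LEF match. The TCF/LEF core was searched as CTTTGAA or CTTTGAT on either strand, within 250 bases before to 50 bases after the start, and capitals mark a match. *Wnt7a* is read from chr6:91411354-91411603 on the minus strand, *Fzd1* from chr5:4758217-4758466 on the minus strand, and *Wnt11* from chr7:98834862-98835111 on the plus strand.
Wnt7a: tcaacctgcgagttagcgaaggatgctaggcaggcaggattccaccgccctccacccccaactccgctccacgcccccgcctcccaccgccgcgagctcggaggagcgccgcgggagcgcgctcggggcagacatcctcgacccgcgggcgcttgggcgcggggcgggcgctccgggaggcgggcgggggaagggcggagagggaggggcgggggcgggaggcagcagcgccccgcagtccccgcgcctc
Fzd1: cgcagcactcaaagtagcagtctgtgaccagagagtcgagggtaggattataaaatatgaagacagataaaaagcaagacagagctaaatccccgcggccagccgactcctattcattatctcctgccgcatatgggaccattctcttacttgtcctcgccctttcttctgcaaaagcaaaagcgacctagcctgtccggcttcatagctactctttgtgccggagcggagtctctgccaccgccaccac
Wnt11: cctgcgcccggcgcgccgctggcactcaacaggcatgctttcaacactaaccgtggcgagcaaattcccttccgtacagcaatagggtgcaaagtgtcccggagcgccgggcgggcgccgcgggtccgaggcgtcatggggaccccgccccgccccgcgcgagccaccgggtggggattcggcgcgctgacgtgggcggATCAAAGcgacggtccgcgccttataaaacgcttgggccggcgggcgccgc

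The *Wnt7a* stretch is 77.6% G or C with 34 CG pairs, that of *Wnt11* 70.8% with 37, and that of *Fzd1* 51.2% with 12. Over the whole 300-base windows the median was 67.3% for the Wnt genes and 52.7% for all genes. A match was present for 3 of the 33 Wnt genes (*Dkk1*, *Wnt5b* and *Wnt11*), which is 9.09%, and for 9.88% of all genes in the RefSeq windows. Of the 8 genes that rose in RC/RC, 4 had a window (*Wnt7a*, *Fzd1*, *Sfrp5* and *Tcf7*), and these letters were in none of them.

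Of the Frizzled receptors, *Fzd1* and *Fzd2* rose in RC/RC and the other 6 that were tested did not pass. *Fzd1* (ENSMUSG00000044674, chromosome 5, 4753873 to 4758035 on the minus strand), the most abundant Frizzled in these kidneys, was at 62.8, 83.7, 62.1 and 61.4 CPM for WT, 161, 144, 149 and 110.0 CPM for RC/RC, and 118, 97.0, 121 and 113 CPM for RC/RC:*Casp1*KO. All mice of both *Pkd1* mutant groups exceeded all WT mice, and the mutant groups overlapped each other. The log2 fold change was 1.06 (SE 0.15, adjusted p = 0.0027) in RC/RC against WT, where the call held when any single mouse was left out. It was 0.74 (SE 0.12, adjusted p = 0.025) in RC/RC:*Casp1*KO against WT, where leaving out a mouse took the adjusted p up to 0.0779, and −0.33 (SE 0.13, adjusted p = 0.127) in RC/RC:*Casp1*KO against RC/RC, all by edgeR.

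*Fzd2* (ENSMUSG00000050288, chromosome 11, 102604396 to 102608058), a receptor used by *Wnt5a* among other ligands, was at 6.65, 7.52, 4.39 and 5.39 CPM for WT, 11.7, 19.0, 12.6 and 9.75 CPM for RC/RC, and 5.93, 8.43, 7.68 and 8.44 CPM for RC/RC:*Casp1*KO. The RC/RC mice lay above all others, and the knockouts overlapped WT. Its rise against WT was a log2 fold change of 1.14 (SE 0.24, adjusted p = 0.0148, edgeR), and 0.77 (adjusted p = 0.0496) without WT mouse C and RC/RC mouse B. The knockout fell against RC/RC by 0.80 on the log2 scale (SE 0.22, adjusted p = 0.0462, edgeR), which passed in 2 of the 8 fits that left out a mouse and was −0.54 (adjusted p = 0.106) without RC/RC mouse B. Of 6 other ways of processing, this fall passed with DESeq2 and with a shared dispersion and was lost in 4, with adjusted p up to 0.0934.

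The other Frizzled receptors did not pass in any comparison. *Fzd4*, the receptor of norrin in blood vessels, had means of 24.2, 19.7 and 25.7 FPKM for WT, RC/RC and the knockout, and *Fzd7* at 6.11, 6.57 and 6.92 FPKM. In RC/RC against WT the 6 receptors not called lay between −0.40 and 0.08 on the log2 scale, and in the knockout against RC/RC the 7 not called lay between −0.33 and 0.41. *Fzd9* and *Fzd10* were too weak to test. The co-receptors also did not pass in any comparison. *Lrp6* was at 160, 192, 233 and 230 CPM for WT, 209, 135, 151 and 196 CPM for RC/RC, and 240, 204, 242 and 200 CPM for RC/RC:*Casp1*KO, with a log2 fold change of −0.25 (SE 0.18, adjusted p = 0.391, edgeR) in RC/RC against WT. *Lrp5*, *Ror1* and *Ror2* gave log2 fold changes of −0.19, −0.25 and 0.17 in the same comparison. The SE of *Ror2*, 0.55, was the widest of these, and its values in WT and RC/RC mice ran from 2.34 to 13.2 CPM with both low and high mice in each group.

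Of the R-spondins, *Rspo3* was at 0.335, 0.335, 1.90 and 0.375 CPM for WT, 0.737, 1.68, 0.647 and 0.558 CPM for RC/RC, and 0.609, 0.654, 0.364 and 1.23 CPM for RC/RC:*Casp1*KO. The highest values were those of WT mouse C and RC/RC mouse B, the pair with the most urothelium RNA. No difference passed (log2 fold change 0.29, SE 0.65, adjusted p = 0.802, edgeR, in RC/RC against WT). *Rspo1* was too weak to test.

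**Figure D3:**
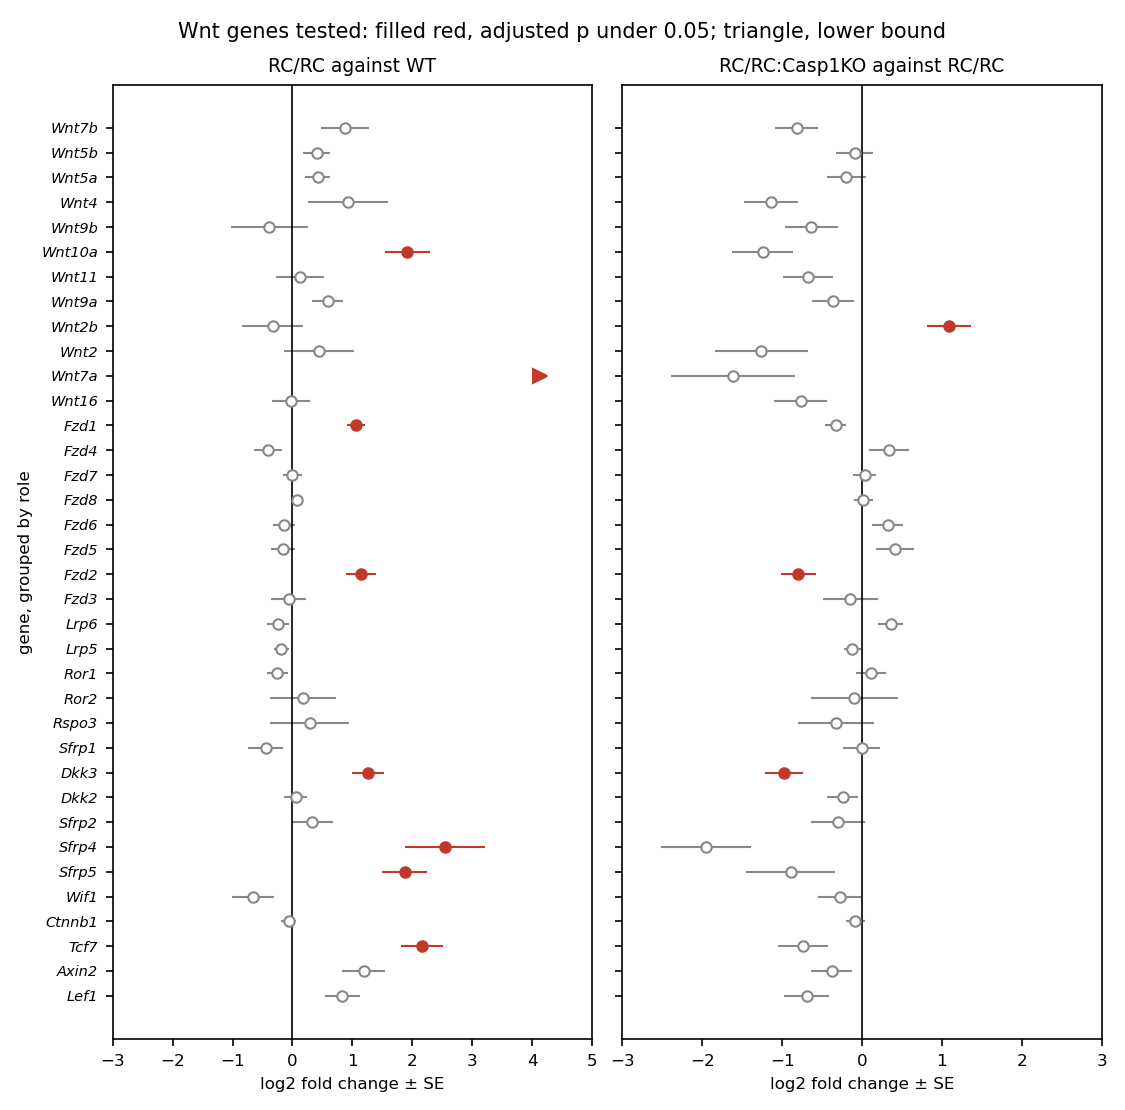
Log2 fold change with SE for the Wnt genes that were tested, in RC/RC against WT (left) and RC/RC:Casp1KO against RC/RC (right), with filled red marks for adjusted p under 0.05 and a triangle at the lower bound of Wnt7a (log2 of 4.14). The 8 calls on the left all lie to the right of 0, and on the right Wnt2b is the call above 0 while Fzd2 and Dkk3 are below it.

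Secreted inhibitors held 3 of the 8 genes that rose in RC/RC. *Dkk3* (ENSMUSG00000030772, chromosome 7, 112116019 to 112159057 on the minus strand), a divergent Dickkopf protein made in many tissues, was at 37.5, 28.6, 18.1 and 24.3 CPM for WT, 62.1, 93.5, 62.6 and 43.3 CPM for RC/RC, and 22.9, 34.9, 39.7 and 35.1 CPM for RC/RC:*Casp1*KO. RC/RC mice were above all mice of both other groups, which overlapped. Against WT the log2 fold change was 1.26 (SE 0.26, adjusted p = 0.0136, edgeR), a call that held when any single mouse was left out. Against RC/RC the knockout fell by 0.98 (SE 0.24, adjusted p = 0.0335, edgeR), which was kept in 3 of the 8 fits that left out a mouse and lost without RC/RC mouse B or C or RC/RC:*Casp1*KO mouse A, B or D, with adjusted p up to 0.0803. It was also lost with library size alone (adjusted p = 0.0697).

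*Sfrp4* (ENSMUSG00000021319, chromosome 13, 19623175 to 19632821) and *Sfrp5* (ENSMUSG00000018822, chromosome 19, 42197971 to 42202252 on the minus strand) are secreted decoys of the Frizzled-related class. Both passed the filter with the help of RC/RC mice, so their adjusted p in RC/RC against WT comes after that selection. *Sfrp4* was at 0.478, 0.287, 1.85 and 0.796 CPM for WT, 1.55, 8.36, 3.02 and 7.22 CPM for RC/RC, and 1.44, 0.808, 0.863 and 2.13 CPM for RC/RC:*Casp1*KO. The groups overlapped, because RC/RC mouse A was lower than WT mouse C. The log2 fold change against WT was 2.55 (SE 0.67, adjusted p = 0.0351, edgeR), and the call was lost when WT mouse A, B or D or RC/RC mouse B, C or D was left out, while the value was 3.23 without WT mouse C. The knockout differed from RC/RC by −1.95 (SE 0.56, adjusted p = 0.0518, edgeR), short of the threshold.

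*Sfrp5* was at 0.813, 0.383, 0.799 and 0.750 CPM for WT, 1.47, 3.63, 2.16 and 2.92 CPM for RC/RC, and 1.44, 0.308, 2.77 and 0.996 CPM for RC/RC:*Casp1*KO. All RC/RC mice exceeded all WT mice, and the knockouts were spread over both ranges. *Sfrp5* rose against WT by a log2 fold change of 1.87 (SE 0.37, adjusted p = 0.0112, edgeR), and differed by 1.72 (adjusted p = 0.056) without WT mouse C and RC/RC mouse B.

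*Sfrp1*, the most abundant secreted inhibitor, was at 222, 212, 108 and 136 CPM for WT, 175, 141, 86.0 and 95.9 CPM for RC/RC, and 101, 146, 103 and 146 CPM for RC/RC:*Casp1*KO. Each group had 2 higher and 2 lower mice, and the groups overlapped (log2 fold change −0.45, SE 0.28, adjusted p = 0.322, edgeR, in RC/RC against WT). The fit holds no term for sex, which the columns do not give, and part of this spread lies between the higher and the lower mice. *Dkk2*, at 9.09, 10.2 and 8.83 FPKM in the 3 groups, *Sfrp2* and *Wif1* also did not pass, with log2 fold changes of 0.05, 0.33 and −0.65 in RC/RC against WT. *Dkk1*, the inhibitor most often cited as a β-catenin target, and *Dkk4* were too weak to test.

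Inside the cell *Ctnnb1* did not differ beyond its spread, at 558, 561, 489 and 467 CPM for WT, 536, 448, 484 and 527 CPM for RC/RC, and 489, 495, 429 and 471 CPM for RC/RC:*Casp1*KO (log2 fold change −0.06, SE 0.12, adjusted p = 0.766, edgeR, in RC/RC against WT). β-Catenin is set mainly by the stability of the protein, which these data do not measure. *Tcf7* (ENSMUSG00000000782, chromosome 11, 52252371 to 52283014 on the minus strand), a TCF/LEF factor that is also a T cell gene, was at 1.96, 1.72, 1.498 and 0.843 CPM for WT, 7.48, 9.47, 6.47 and 3.69 CPM for RC/RC, and 3.82, 3.81, 5.82 and 2.75 CPM for RC/RC:*Casp1*KO. Both mutant groups lay above all WT mice. The log2 fold changes were 2.16 (SE 0.35, adjusted p = 0.00424) in RC/RC against WT, 1.43 (SE 0.32, adjusted p = 0.0586) in RC/RC:*Casp1*KO against WT, and −0.74 (SE 0.31, adjusted p = 0.14) in RC/RC:*Casp1*KO against RC/RC, by edgeR.

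T cell markers also differed between the groups. Their summed level over 7 genes was 7.32, 4.12, 4.94 and 4.03 CPM for WT, 15.4, 25.8, 18.7 and 10.8 CPM for RC/RC, and 9.08, 6.81, 20.8 and 9.49 CPM for RC/RC:*Casp1*KO. Of the 7, 6 rose in RC/RC and none fell in the knockout against RC/RC, *Cd3g* was the most abundant, and none was at 0 in all mice. For *Tcf7* and for this sum alike, RC/RC mouse B was the highest and mouse D the lowest of its group, while RC/RC:*Casp1*KO mouse C was the highest knockout. The lowest knockout was mouse D for *Tcf7* and mouse B for the sum. RC/RC:*Casp1*KO mouse B lay within the WT range for the sum and above all WT mice for *Tcf7*. The match of mice was not particular to T cells. A sum of 7 fibroblast markers had the same highest and lowest RC/RC mice (1885 and 821 CPM) and the same highest knockout (714 CPM). The part of T cells in the *Tcf7* values was not tested.

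*Axin2*, a direct target of β-catenin that is widely used as a readout of the pathway, was at 1.82, 2.68, 3.95 and 1.41 CPM for WT, 5.54, 7.78, 5.93 and 3.35 CPM for RC/RC, and 3.38, 5.16, 4.82 and 3.94 CPM for RC/RC:*Casp1*KO. RC/RC mouse D was lower than WT mouse C, so the groups overlapped. The log2 fold change of 1.19 (SE 0.36, adjusted p = 0.061, edgeR) in RC/RC against WT missed the threshold. It passed with DESeq2, with a dispersion shared by all 12 mice, and when WT mouse C or RC/RC mouse D was left out (adjusted p between 0.0121 and 0.0622 over the ways of processing). The knockout differed from RC/RC by −0.38 (SE 0.26, adjusted p = 0.345, edgeR). Over the fits that left out 1 mouse this value ran from −0.56 to −0.16, the latter without RC/RC mouse B. *Lef1* was at 1.34, 1.24, 1.15 and 0.750 CPM for WT, 1.74, 2.42, 2.43 and 1.46 CPM for RC/RC, and 0.886, 1.27, 1.23 and 1.57 CPM for RC/RC:*Casp1*KO. All RC/RC mice exceeded all WT mice, and the difference did not pass (log2 fold change 0.83, SE 0.29, adjusted p = 0.0927, edgeR).

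The wider pathway was read from 73 further genes, from ligand secretion to target genes. In RC/RC against WT 10 of them rose and 3 fell, 20.3% of the 64 tested beside 12.9% of all genes, and the median log2 fold change was −0.01 beside −0.02 over all genes. Most of the rises, 7 of 10, were among the 14 feedback and target genes, which makes 58.3% of the 12 tested beside 9.76% of all genes called as higher. Their median log2 fold change was 1.35. The gene lists were chosen with earlier results of these data known, so the 58.3% only describes this list. The feedback inhibitors *Nkd1* and *Nkd2*, which act on Dishevelled, rose by log2 fold changes of 1.45 (SE 0.30, adjusted p = 0.0139) and 4.27 (SE 0.42, adjusted p = 0.000433), and the Dishevelled antagonists *Dact1* and *Dact3* by 1.32 and 1.38, in edgeR's test. The adhesion receptor *Cd44* rose by 2.52, and the matricellular genes *Wisp1* and *Wisp2* by 1.97 and 5.04. These 7 genes were called whichever single mouse was left out. *Wisp2* had 0, 0, 6 and 1 counts for WT and 46, 77, 53 and 76 counts for RC/RC, so it entered the test through the RC/RC mice. Its call, which is part of the 58.3%, is therefore no further support. The fitted value of *Wisp2* rests on few WT counts and was 7.08 without WT mouse C, whose omission leaves 1 count in 3 WT mice. *Ccnd1*, *Dact2*, *Sp5*, *Tnfrsf19* and *Nxn* did not pass, with *Ccnd1*, the cyclin D1 gene, at 0.58 (SE 0.17, adjusted p = 0.0566, edgeR).

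*Nkd2* was at 0.861, 0.718, 1.85 and 0.796 CPM for WT, 19.2, 32.9, 19.3 and 10.996 CPM for RC/RC, and 2.44, 2.54, 18.4 and 3.70 CPM for RC/RC:*Casp1*KO. As with *Wnt7a*, RC/RC:*Casp1*KO mouse C lay in the RC/RC range and the other knockouts below it (log2 fold change against RC/RC −1.60, SE 0.65, adjusted p = 0.129, edgeR). *Nkd1* was at 7.37, 5.84, 5.34 and 4.36 CPM for WT, 13.1, 25.8, 14.7 and 9.41 CPM for RC/RC, and 4.93, 5.58, 7.04 and 5.79 CPM for RC/RC:*Casp1*KO, so that the knockouts lay within the WT range. Against RC/RC the knockout fell for *Nkd1* by 1.43 (SE 0.29, adjusted p = 0.0191), for *Dact3* by 1.60 (SE 0.29, adjusted p = 0.0138) and for *Nxn*, a thioredoxin-like regulator of Dishevelled, by 0.66 (SE 0.15, adjusted p = 0.0259), by edgeR. These 3 are 23.1% of the 13 feedback and target genes tested, beside 4.41% of all genes called as lower, and the median log2 fold change of the 13 was −0.85. As above, that share comes from a list chosen with earlier results known. Of these 3 calls only that of *Dact3* was kept whichever single mouse was left out, and that of *Nxn* was also lost with library size alone (adjusted p = 0.0587).

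**Figure D4:**
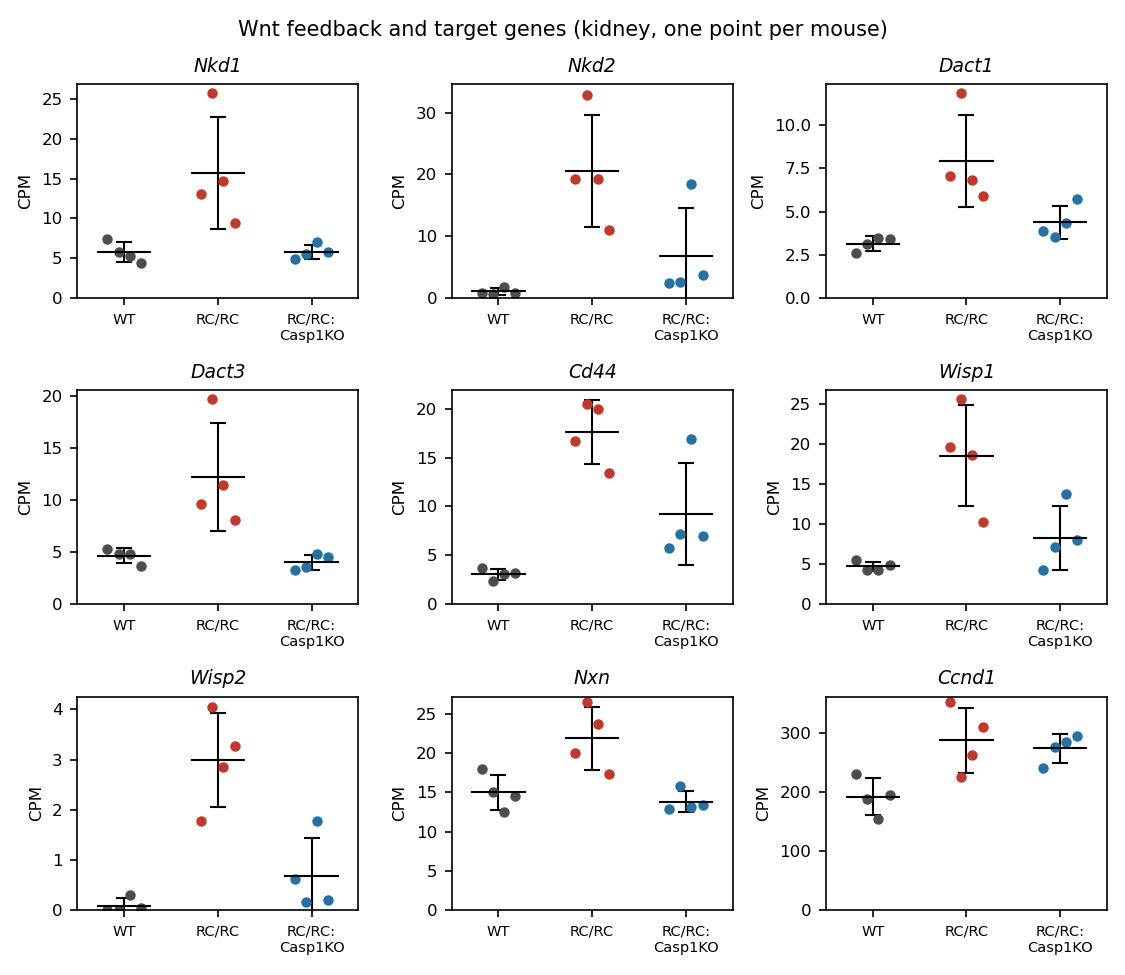
CPM in each mouse (points), with the group mean (line) and SD (bars, cut at 0), for the feedback and target genes that passed a test and for Ccnd1, which did not. RC/RC mice (red) lie above all WT mice (grey) for the first 7 genes, which were drawn because they passed, and in RC/RC:Casp1KO (blue) mouse C is the high point of Nkd2, Cd44, Wisp1 and Wisp2.

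Elsewhere in the pathway few genes were called. In RC/RC against WT, *Trabd2b*, a membrane protease that inactivates Wnt proteins, fell by 1.14 (adjusted p = 0.0293), *Lgr4*, a receptor of R-spondins, fell by 0.66 (adjusted p = 0.0398) and the cytoplasmic adaptor *Dvl3* fell by 0.52 (adjusted p = 0.0155), while the membrane inhibitor *Tmem88*, the co-receptor *Ptk7* and the co-activator *Pygo1* rose by 1.15, 0.93 and 1.09, by edgeR on the log2 scale. The calls of *Trabd2b*, *Lgr4* and *Pygo1* each held in 2 of the 8 fits that left out a mouse, and none of these 6 genes passed without WT mouse C and RC/RC mouse B. Their log2 fold changes in that fit were −0.92 for *Trabd2b*, −0.62 for *Lgr4*, −0.49 for *Dvl3*, 0.87 for *Tmem88*, 0.64 for *Ptk7* and 1.12 for *Pygo1*. *Lgr4* and *Dvl3* were also lost with library size alone (adjusted p = 0.0548 and 0.07). In the knockout against RC/RC, 2 of the 73 genes rose and 5 fell, 10.9% of the 64 tested and near the 11.6% of all genes. *Dvl3* rose by 0.62 (SE 0.11, adjusted p = 0.0121, edgeR), with all knockouts at 43.6 to 54.3 CPM above all RC/RC mice at 29.0 to 37.6 CPM, and this call held whichever single mouse was left out. *Celsr2*, a planar polarity cadherin, rose by 0.84 (adjusted p = 0.0269), while *Tmem88* fell by 1.00 and *Ptk7* by 0.88. These calls held in 3, 2 and 2 of the 8 fits that left out a mouse, with adjusted p up to 0.131. None held without RC/RC mouse B, where the log2 fold changes were 0.77, −0.76 and −0.66. *Ptk7* passed in 3 of 6 other ways of processing, and *Tmem88* was lost with library size alone (adjusted p = 0.0651). In RC/RC:*Casp1*KO against WT none of the 73 passed edgeR's test, where 2.03% of all genes did, and DESeq2 called 8. An unadjusted p under 0.05 was seen for 18 of the 63 tested (28.6%), beside 21.8% of all genes.

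Other cell type markers moved in the same comparisons. All 7 fibroblast markers rose in RC/RC and 5 of the 7 fell in the knockout against RC/RC. Their summed level was 309, 220, 249 and 289 CPM for WT, 1184, 1885, 1071 and 821 CPM for RC/RC, and 309, 323, 714 and 464 CPM for RC/RC:*Casp1*KO, *Dcn* was the most abundant, and none was at 0 in all mice. In both mutant groups some Wnt genes had the same highest or lowest mouse as this sum. Among the 8 Wnt genes that rose in RC/RC, mouse B was the highest RC/RC mouse for 5 and mouse D the lowest for 6, and RC/RC:*Casp1*KO mouse C was the highest knockout for 6. In WT the ranks differed, as mouse B was the highest WT mouse for 4 of these genes and had the lowest fibroblast sum. The 4 B cell markers all rose in RC/RC and 3 of 4 macrophage markers did. Of the 7 proximal tubule markers, led by *Slc34a1*, 2 fell in RC/RC and 2 rose in the knockout against RC/RC, and the summed level was 8831 to 13405 CPM for WT mice, 4185 to 9716 CPM for RC/RC mice and 10397 to 12713 CPM for the knockouts, above all RC/RC mice. Of the 5 thick limb and distal convoluted tubule markers, led by *Umod*, 2 fell in RC/RC and 1 rose in the knockout against RC/RC, and none of these 12 tubule markers was at 0 in all mice. Of 5 endothelial markers none passed. The part of fibroblasts, immune cells or tubule cells in the Wnt values was not tested.

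**Figure D5:**
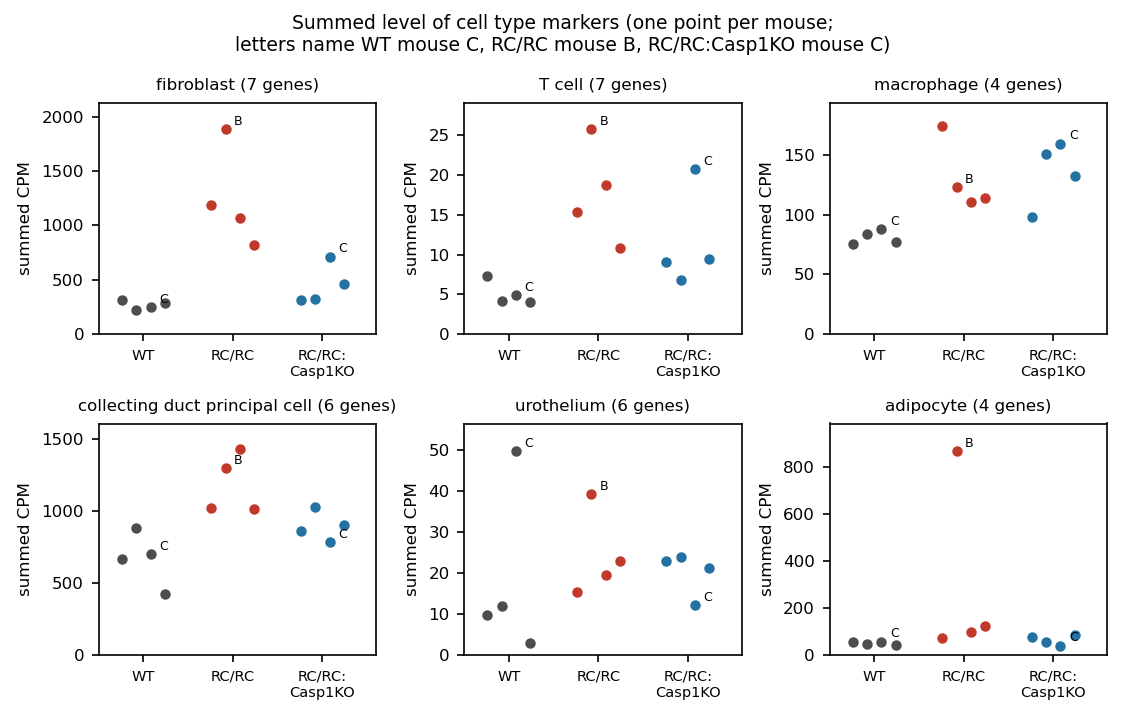
Summed CPM of the marker genes of 6 cell types in each mouse (points), with letters for WT mouse C, RC/RC mouse B and RC/RC:Casp1KO mouse C. Fibroblast and T cell sums of RC/RC mice (red) lie above all WT mice (grey), RC/RC mouse B stands apart in the adipocyte sum at 869 CPM, and WT mouse C is the highest in the urothelium sum at 49.7 CPM.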

How the data were processed

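Poly(A) libraries of 12 mouse kidneys were sequenced by Novogene. The submitters' processing notes name CASAVA 1.8, STAR and mm10, and the counting tool, annotation and strand setting are not given in the sources used here. The authors deposited 1 table of 35275 genes, whose counts are unnormalized reads per gene and mouse. Gene lengths in base pairs were also deposited by the authors, and FPKM was computed here from the deposited counts, these lengths and the sum of counts per mouse. The 12 deposited FPKM columns of single mice and 3 of groups were not used. Fold changes, p-values and group means of the authors' DESeq2 analysis in the table were not used. Column names give the group and a mouse number and not sex or replicate, so no result is given by sex. The letters A to D follow the mouse numbers and pair no mice. For the 18 pairs of mice within a group, chi-square per degree of freedom was 15.7 to 128, so no 2 libraries were alike within counting error.

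Each pair of groups was fitted with 8 mice in edgeR 4.0.16 (R 4.3.3), with TMM factors, filterByExpr and the quasi-likelihood test, Benjamini-Hochberg adjusted over all genes tested, after tests on simulated data. CPM used TMM factors of all 12 libraries. The floor of 3 counts covers counting error only. Alternatives were RLE factors, library size alone, DESeq2 1.42.0, 2 other filters, a dispersion shared by all 12 mice, and leaving out each mouse. Per-mouse values are given for Wnt genes that passed a test, for the most abundant of each role and for *Axin2*, *Ctnnb1*, *Lef1* and *Tcf7*, and of the other pathway lists the genes that passed, at most 3 in each direction where over 5 did. *Wnt4*, *Wnt9b*, *Ror2*, *Nkd2* and *Nkd1* were given more values, and feedback genes beyond 3 rises were named, after these had been seen. The Wnt genes and the gene lists were chosen with earlier results of these data known. Of 74 further pathway symbols 73 matched. Near copies were sought with BLAST 2.17.0 at 95% identity over at least 100 bases in GENCODE transcripts, and 23 of the 48 genes had one, 21 of them with 1 or 2 other genes.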

Additional observations from a re-analysis of the deposited data

Results flagged for a closer look

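In 8 of 108 groups of 4 mice (36 Wnt genes in 3 groups) the highest or lowest mouse lay beyond Dixon's limit from the other 3, and chance gives about 1 in 20 groups. In WT mouse C *Wnt4* was at 14.1 CPM against 1.45 to 2.44 CPM in the other WT mice, and *Rspo3* at 1.90 CPM against 0.335 to 0.375 CPM. *Rspo3* was also high in RC/RC mouse B, at 1.68 CPM against 0.558 to 0.737 CPM in the rest of RC/RC. These are the mice with the highest sums of urothelium markers, and the part of that tissue in the values was not tested. *Fzd6*, a receptor of planar polarity, was at 29.9 CPM in RC/RC mouse A against 16.2 to 17.7 CPM in the others. WT mouse B had *Fzd1* at 83.7 CPM against 61.4 to 62.8 CPM and *Sfrp5* at 0.383 CPM against 0.750 to 0.813 CPM. *Wnt2* in WT mouse A was at 1.77 CPM against 0.449 to 0.609 CPM. *Wnt7a* in WT mouse B, at 0.0479 CPM, is a single count where the other WT mice had 0.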

How the results depend on the processing

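No paired analysis was possible because the columns carry no replicate number of the labels. Of 862 log2 fold changes under alternatives, 736 kept their direction and their side of the threshold, 101 no longer passed, 19 newly passed and 6 changed sign. The changes of sign were *Wnt2b* in RC/RC against WT without WT mouse C (0.041), *Wnt7b* in RC/RC:*Casp1*KO against WT without WT mouse D (−0.17) or knockout mouse B (−0.04), and *Wnt4* in the same comparison without WT mouse C (1.07, also when this mouse was left out for its urothelium markers) or knockout mouse A (0.00338). Over the fits that left out 1 mouse, these values ran from −0.63 to 0.041 for *Wnt2b*, from −0.17 to 0.50 for *Wnt7b* and from −0.51 to 1.07 for *Wnt4*.

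In RC/RC against WT the 8 Wnt genes became 5 with at least 10 counts in every mouse and 7 to 11 when each mouse was left out. The 13 other pathway genes became 20 with DESeq2, 7 to 18 when each mouse was left out and 7 without the pair of mice with adipocyte or urothelium RNA. The 1971 genes in all became 3027 with DESeq2, 1162 to 2440 when each mouse was left out and 1042 without the pair. In RC/RC:*Casp1*KO against RC/RC the 3 Wnt genes became 1 with library size alone, 7 with DESeq2, 0 to 6 when each mouse was left out and 1 without RC/RC mouse B. There the 7 other pathway genes became 16 with DESeq2, 11 with a shared dispersion, 2 to 11 when each mouse was left out and 3 without RC/RC mouse B, and the 1797 genes in all became 993 with library size alone (814 higher and 179 lower, beside 1116 and 681), 3172 with DESeq2, 438 to 2789 when each mouse was left out and 754 without RC/RC mouse B. In RC/RC:*Casp1*KO against WT the 1 Wnt gene became 2 with library size alone, 3 with DESeq2, 2 with a shared dispersion, 0 to 1 when each mouse was left out and 0 without WT mouse C, and the 0 other pathway genes became 8 with DESeq2, 1 with every gene that had a count, 1 with a shared dispersion and 0 to 2 when each mouse was left out. The 311 genes in all became 1387 with DESeq2, 167 with at least 10 counts in every mouse and 108 to 547 when each mouse was left out. The cause of these shifts was not tested, apart from the filter, which removed weak genes. At this depth 12 of the 48 Wnt genes, with at most 28 counts in any mouse, could not be tested.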

Other observations

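*Ror2*, a receptor of *Wnt5a*, and *Sfrp1* each had a pair of high and a pair of low mice in every group, a pattern chosen after the values were seen. *Ror2* was at 9.31 to 13.8 CPM and *Sfrp1* at 141 to 222 CPM in WT mice A and B, RC/RC mice A and B and RC/RC:*Casp1*KO mice B and D, and at 2.05 to 5.02 CPM and 86.0 to 136 CPM in the other 6 mice. *Xist*, the RNA of the inactive X chromosome, was at 278 to 778 CPM in the first 6 and at 0.0540 to 0.818 CPM in the others. *Ddx3y*, a gene of the Y chromosome, was at 0 to 0.115 CPM in the first 6 and at 55.5 to 78.5 CPM in the others. The columns do not give the sex of a mouse, so this relation was not tested. The ranges above are given by *Xist* level, and no fit was split by it.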
